A study of Homo sapiens with 5 samples.

Results

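The genes described are the NF-κB subunits NFKB1, NFKB2, RELA and RELB, the feedback inhibitors NFKBIA, NFKBIE and TNFAIP3, and the inducible genes IER3, CXCL8 and ICAM1. They were selected on measured values, with the difference between the si-circVAMP3 and si-SCR libraries already known, so their differences are given as a description and carry no test. Of these 10 genes, 9 had a row among the 13822 genes of the expression table, and ICAM1 was not analysed here. The libraries came from RH4 cells, an established line of alveolar rhabdomyosarcoma, a soft tissue tumour with features of the skeletal muscle lineage. Poly-A+ RNA was sequenced from 3 biological replicates transfected with the control siRNA si-SCR and from 2 transfected with si-circVAMP3, an siRNA directed against the circular RNA circVAMP3. Either siRNA was used at 30 nM, with a change of medium after 24 h and collection of the cells 24 h later. The comparison addressed which linear transcripts differ once the circular RNA is depleted. The values are FPKM, the fragments of a gene divided by its length and by the size of the library. The fragments recovered from them summed to 26115848, 24724163 and 24617613 in the si-SCR libraries and to 18395043 and 28486288 in the si-circVAMP3 libraries.

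The sense strand of si-circVAMP3 is shown because its bases span the junction that is present in the circle and absent from the linear VAMP3 transcript. The first 8 bases come from the end of exon 4, and the 11 bases in capitals come from the start of exon 3, which back-splicing joins to it in a circle of 211 bases. The last 2 bases are an overhang.
si-circVAMP3: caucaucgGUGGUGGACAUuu

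VAMP3 itself (chr1:7771296-7781432, plus strand, GRCh38), which encodes a vesicle membrane protein, had FPKM values of 36.4, 35.4 and 37.4 in the si-SCR libraries and of 29.4 and 30.2 in the si-circVAMP3 libraries. Both si-circVAMP3 libraries lay below all 3 si-SCR libraries. The log2 difference of VAMP3 was -0.29 ± 0.04 (SE) on the log2(FPKM + 0.5) scale, with an adjusted p of 0.005 by limma with Benjamini-Hochberg adjustment, and it did not reach the size required for a call. These values count linear transcripts. The level of the circle was not measured in them, so they do not check the knock-down.

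NF-κB is a family of dimeric transcription factors that are held inactive in the cytoplasm by IκB proteins. Signals from cytokine receptors, Toll-like receptors or cell stress activate the IκB kinase complex, which marks IκB for degradation and lets the dimers enter the nucleus. Among their target genes are their own inhibitors, which gives the pathway negative feedback, as well as chemokines, adhesion molecules and survival genes. A gene was called when its limma adjusted p (Benjamini-Hochberg over all genes tested) was under 0.05 and its absolute log2 difference was at least 0.58. All fits compared the 2 si-circVAMP3 libraries with the 3 si-SCR libraries over 12423 genes with at least 0.5 FPKM in at least 2 libraries.

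IER3 and CXCL8 were the members with the largest differences, and both were higher in si-circVAMP3 cells. RELB was lower, the inhibitors NFKBIA, NFKBIE and TNFAIP3 were higher by smaller amounts, and the remaining subunits differed little. All 9 members with a row passed the filter on low values, and all 9 passed it on the si-SCR libraries alone. The call took in 3 of the 9, beside 3.76% of all genes tested. Of these, 2 were higher, beside 1.07% of all genes, and 1 was lower, beside 2.69%. With the adjusted p alone, 6 members were higher, beside 14.4% of all genes, and 2 were lower, beside 15.8%. In 6 members every si-circVAMP3 library lay above every si-SCR library, which was so for 29.4% of all genes, and in 2 members every si-circVAMP3 library lay below, which was so for 29.0%. Since the members were selected on this contrast, nothing is read from these counts. The median log2 difference was 0.31 over the 9 members and 0.01 over all genes tested.

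**Figure D1:**
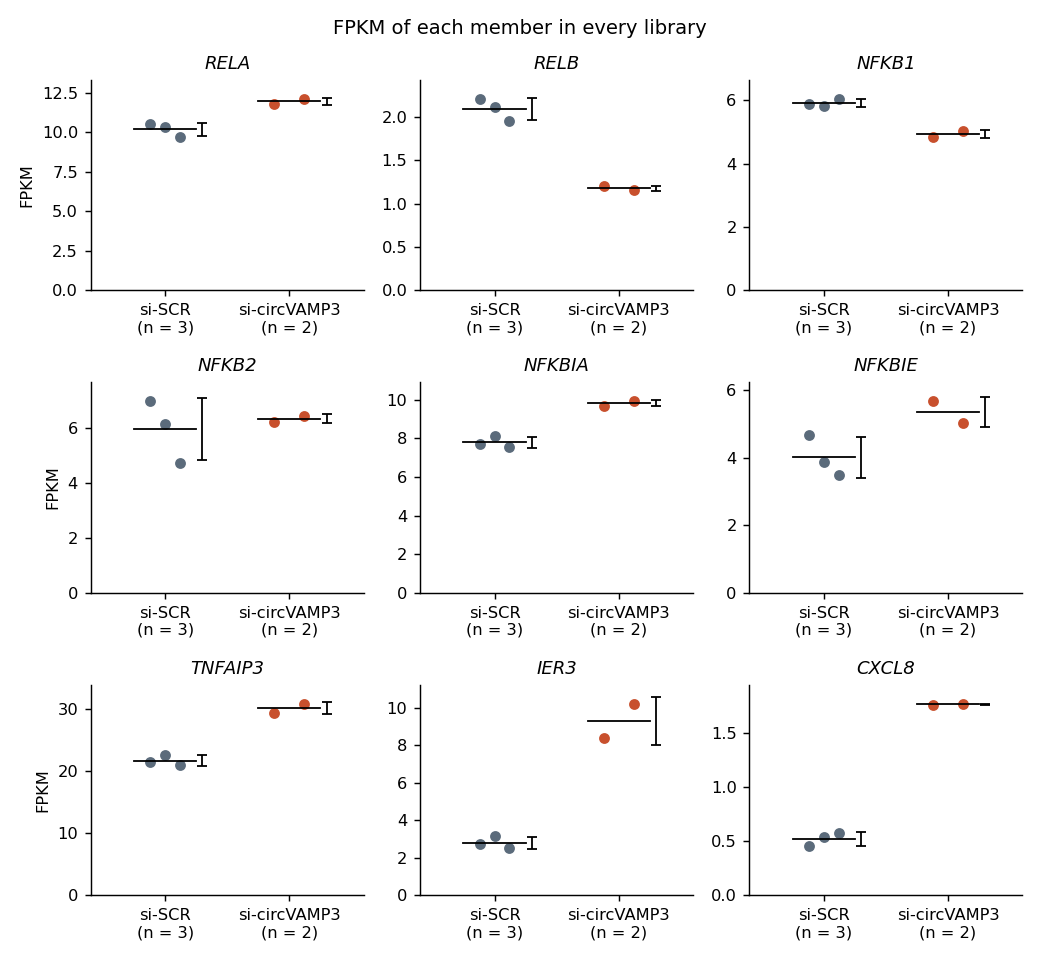
FPKM (vertical axes, each from 0) of the 9 members in the 3 si-SCR and 2 si-circVAMP3 libraries, with each point a library, each horizontal line a group mean and each bar beside it the SD. The groups are separate in every panel except that of NFKB2, whose si-circVAMP3 values of 6.24 and 6.46 lie within the si-SCR range of 4.74 to 6.98.

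IER3 (chr6:30743199-30744548, minus strand), an immediate early response gene induced by NF-κB and by growth factor and stress signals, had FPKM values of 2.72, 3.17 and 2.52 in the si-SCR libraries and of 8.39 and 10.2 in the si-circVAMP3 libraries. Both si-circVAMP3 libraries were far above all si-SCR libraries, and the gap between the groups was wider than the spread within either. The mean FPKM went from 2.81 ± 0.332 (SD, n = 3) to 9.29 ± 1.27 (SD, n = 2), a ratio of 3.31, and single libraries gave ratios from 2.65 to 4.04. On the log2(FPKM + 0.5) scale the difference was 1.56 ± 0.11 (SE). These values rest on 98, 107 and 85 fragments in the si-SCR libraries and on 210 and 396 in the si-circVAMP3 libraries. In bulk RNA, fewer cells of a type and less RNA per cell cannot be told apart, and this holds for all differences given here.

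CXCL8 (chr4:73740519-73743716, plus strand) encodes interleukin-8, a chemokine that attracts neutrophils. The gene had FPKM values of 0.452, 0.536 and 0.573 in the si-SCR libraries and of 1.76 and 1.77 in the si-circVAMP3 libraries. The si-circVAMP3 libraries were nearly equal and stood well above the si-SCR libraries, with no overlap. The ratio of the means was 3.39, with single libraries between 3.07 and 3.91, and the log2 difference was 1.15 ± 0.09 (SE). The added 0.5 FPKM is about as large as the si-SCR level of CXCL8, so this log2 difference understates the ratio. Limma-voom on recovered fragments, chosen after the data were seen, gave 1.75. The gene was counted with only 27, 30 and 32 fragments in the si-SCR libraries and with 73 and 114 in the si-circVAMP3 libraries. Counting error alone is then 9.37% to 19.2% of a value, more than the gap between the si-circVAMP3 libraries.

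The CXCL8 promoter is shown because NF-κB is known to act there, beside AP-1 and C/EBP factors. A shorter κB core, GGANNTTCC, chosen after the sequences were seen, was searched on both strands of the 250 bases before each RefSeq start, together with the longer κB consensus, which it can overlap. In CXCL8 the core matched 91 to 83 bases before the RefSeq start, and the consensus did not match. The stretch printed is the part before the start of the gene annotation, chr4:73740319-73740518 on the plus strand of GRCh38.p14, from RefSeq, with the match in capitals.
CXCL8 promoter: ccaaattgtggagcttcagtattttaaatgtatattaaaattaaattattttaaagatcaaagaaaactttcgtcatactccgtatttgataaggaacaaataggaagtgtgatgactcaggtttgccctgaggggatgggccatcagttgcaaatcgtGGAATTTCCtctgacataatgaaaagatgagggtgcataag

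Among the feedback genes, TNFAIP3 (chr6:137867214-137883314, plus strand) encodes A20, a ubiquitin-editing enzyme that ends NF-κB signalling. TNFAIP3 stood at FPKM values of 21.5, 22.7 and 21.0 in the si-SCR libraries and of 29.5 and 30.9 in the si-circVAMP3 libraries. The groups were apart, and the spread within either was small beside the gap. The mean went from 21.7 ± 0.877 (SD, n = 3) to 30.2 ± 1.01 (SD, n = 2), a ratio of 1.39, and the log2 difference was 0.47 ± 0.05 (SE). With 2627 to 4476 fragments per library, TNFAIP3 was the most deeply counted member, and its counting error was at most 1.95%.

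NFKBIA (chr14:35401079-35404749, minus strand) encodes IκBα, the inhibitor that is degraded and made anew in each round of activation. Its FPKM values were 7.68, 8.11 and 7.57 in the si-SCR libraries and 9.69 and 9.91 in the si-circVAMP3 libraries, again with every si-circVAMP3 library above every si-SCR library. The ratio of the means was 1.26 and the log2 difference 0.31 ± 0.05 (SE). NFKBIE (chr6:44258166-44265788, minus strand), which encodes the related inhibitor IκBε, varied more, with FPKM values of 4.66, 3.89 and 3.48 in the si-SCR libraries and of 5.67 and 5.03 in the si-circVAMP3 libraries. The lower si-circVAMP3 library exceeded the highest si-SCR library by a ratio of only 1.08, although the ratio of the means was 1.33 and the log2 difference 0.38 ± 0.12 (SE). None of these 3 inhibitors reached the size required for a call.

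The promoters of NFKBIA and TNFAIP3 are shown for comparison with that of CXCL8, since these members were higher in the same libraries. Capitals mark matches to the κB consensus or to the core. NFKBIA held a core match 242 to 234 bases before its start and a consensus match 81 to 72 bases before it, the latter overlapping a core match. TNFAIP3 held consensus matches 67 to 58 and 55 to 46 bases before its start. The NFKBIA stretch is chr14:35404750-35404999 on the minus strand, and the TNFAIP3 stretch is chr6:137867009-137867213 on the plus strand, both from RefSeq on GRCh38.p14.
NFKBIA promoter: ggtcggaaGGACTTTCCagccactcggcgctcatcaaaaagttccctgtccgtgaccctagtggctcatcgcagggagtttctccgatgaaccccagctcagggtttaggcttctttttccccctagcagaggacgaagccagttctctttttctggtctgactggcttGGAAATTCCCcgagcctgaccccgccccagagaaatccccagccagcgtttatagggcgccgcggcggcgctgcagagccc
TNFAIP3 promoter: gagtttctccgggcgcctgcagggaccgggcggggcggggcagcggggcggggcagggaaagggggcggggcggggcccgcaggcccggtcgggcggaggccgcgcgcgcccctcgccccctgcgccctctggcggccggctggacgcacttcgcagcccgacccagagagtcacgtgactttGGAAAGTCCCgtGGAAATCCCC

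RefSeq promoters were at hand for 7 of the 10 members, with 11 starts in all, and IER3, RELB and NFKBIE had no entry. Counted by window, the κB consensus matched at 5 of the 11 starts, beside 9.96% of 35116 promoter windows of the same length. The core matched at 6 of the 11, beside 3.84%, and either motif at 7, beside 11.9%. Starts of the same gene are not independent, and the members are known NF-κB genes, so nothing is read from these counts. The consensus matches lay at starts of NFKB1, NFKB2, NFKBIA and TNFAIP3. RELA was the member with none in its windows. Matches were held by members that were higher in si-circVAMP3 cells as well as by NFKB1, which was lower, and NFKB2, whose groups overlapped. A match is a description of the letters and not evidence of binding in these cells.

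**Figure D2:**
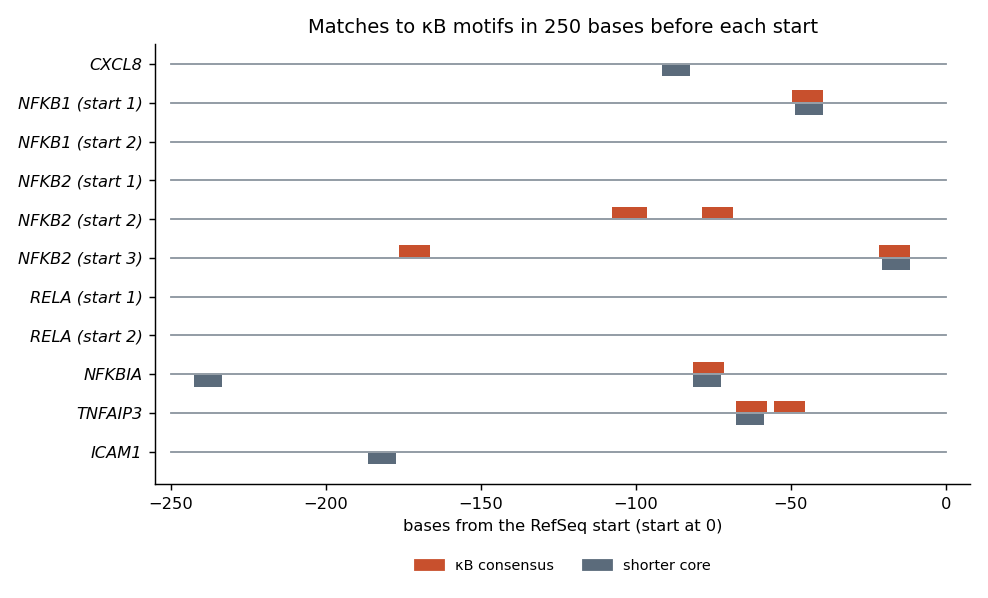
Matches to the κB consensus (upper bars) and to the shorter core (lower bars) on either strand in the 250 bases before each RefSeq start of 7 members, by distance from the start in bases. NFKB2 carries matches at 2 of its 3 starts, and both starts of RELA are without one.

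Of the subunits, RELA (chr11:65653599-65663090, minus strand) encodes p65, the main activating partner of the canonical dimer. RELA had FPKM values of 10.5, 10.3 and 9.71 in the si-SCR libraries and of 11.8 and 12.1 in the si-circVAMP3 libraries. The groups did not overlap, but the gap was narrow, with a ratio of the means of 1.18 and a log2 difference of 0.22 ± 0.05 (SE). NFKB1 (chr4:102501330-102617302, plus strand) encodes p105, the precursor of the p50 partner of p65. Its FPKM values were 5.88, 5.81 and 6.04 in the si-SCR libraries and 4.85 and 5.02 in the si-circVAMP3 libraries. Both si-circVAMP3 libraries were below all si-SCR libraries, with a ratio of the means of 0.835 and a log2 difference of -0.24 ± 0.06 (SE).

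RELB (chr19:45001461-45038192, plus strand), the activating partner in the non-canonical pathway, had FPKM values of 2.21, 2.12 and 1.95 in the si-SCR libraries and of 1.20 and 1.16 in the si-circVAMP3 libraries. Its groups were well separated and tight. The mean went from 2.10 ± 0.131 (SD, n = 3) to 1.18 ± 0.0253 (SD, n = 2), a ratio of 0.563, and the log2 difference was -0.63 ± 0.08 (SE). The value lay close to the size required for a call, and with 1 FPKM added in place of 0.5 it was -0.50, below that size. It was -0.78 with 0.1 FPKM added, and limma-voom on recovered fragments gave -0.84, the largest difference of the alternatives, so that at the level of RELB the added value shrinks the difference. RELB was counted with 178, 160 and 147 fragments in the si-SCR libraries and with 67 and 101 in the si-circVAMP3 libraries.

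NFKB2 (chr10:102394110-102402524, plus strand) encodes p100, the precursor of p52, which pairs with RELB. Its FPKM values were 6.98, 6.17 and 4.74 in the si-SCR libraries and 6.24 and 6.46 in the si-circVAMP3 libraries. Here the si-SCR libraries spread widely and enclosed both si-circVAMP3 libraries. The log2 difference of 0.10 ± 0.14 (SE) was smaller than its error, ran from -0.05 to 0.21 over the alternatives tried, and was -0.05 without si-SCR replicate 3.

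**Figure D3:**
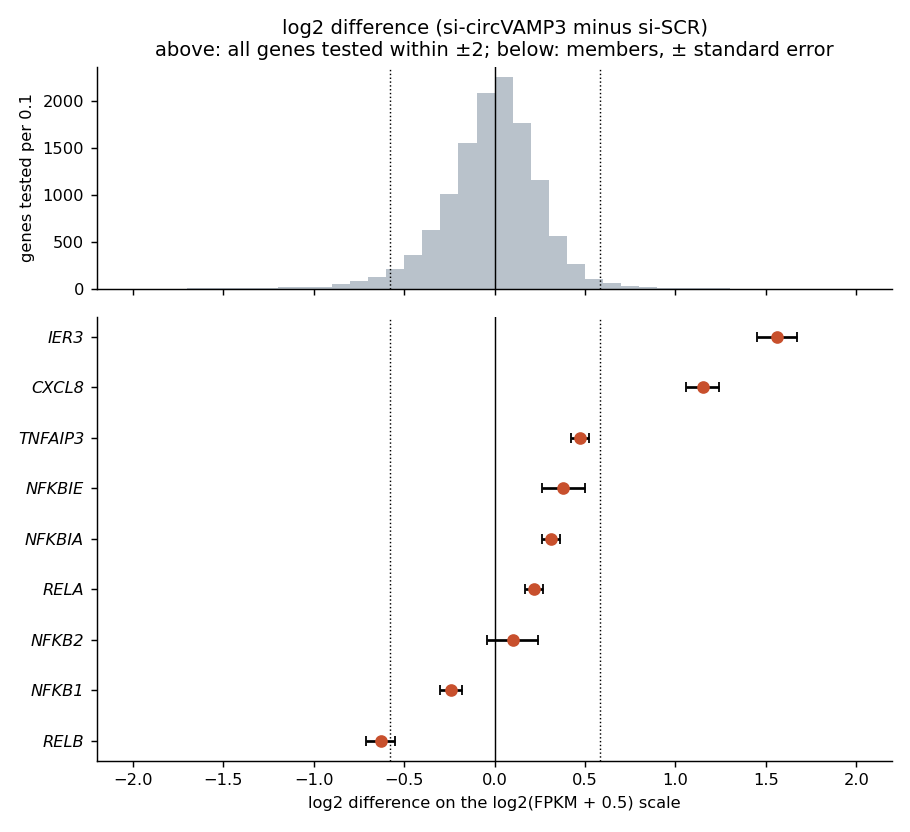
Log2 difference (si-circVAMP3 minus si-SCR, horizontal axis, on the log2(FPKM + 0.5) scale) of the genes tested that lie within the plotted range, as a histogram above, and of the 9 members with their standard errors below. Dotted lines mark the size of 0.58 required for a call, and IER3 at 1.56, CXCL8 at 1.15 and RELB at -0.63 lie outside them.

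The order of the members by FPKM, a measure per gene length, was headed by TNFAIP3 and RELA in both groups. In si-SCR cells TNFAIP3 at 21.7 was followed by RELA at 10.2, NFKBIA at 7.79, NFKB2 at 5.96, NFKB1 at 5.91, NFKBIE at 4.01, IER3 at 2.81, RELB at 2.10 and CXCL8 at 0.520 FPKM. In that order only the neighbours NFKB2 and NFKB1 overlapped between libraries. In si-circVAMP3 cells IER3 at 9.29 stood beside NFKBIA at 9.80, with overlapping libraries, and CXCL8 at 1.76 stood above RELB at 1.18. NFKBIE at 5.35 stood just above NFKB1 at 4.94 there, with libraries that did not overlap. Percentiles were taken over all 13822 genes of the expression table, including those too low to be tested. On that scale the mean level of IER3 moved from 37.9 to 66.8 and that of CXCL8 from 11.8 to 29.2. RELB went from 32.0 to 22.5.

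**Figure D4:**
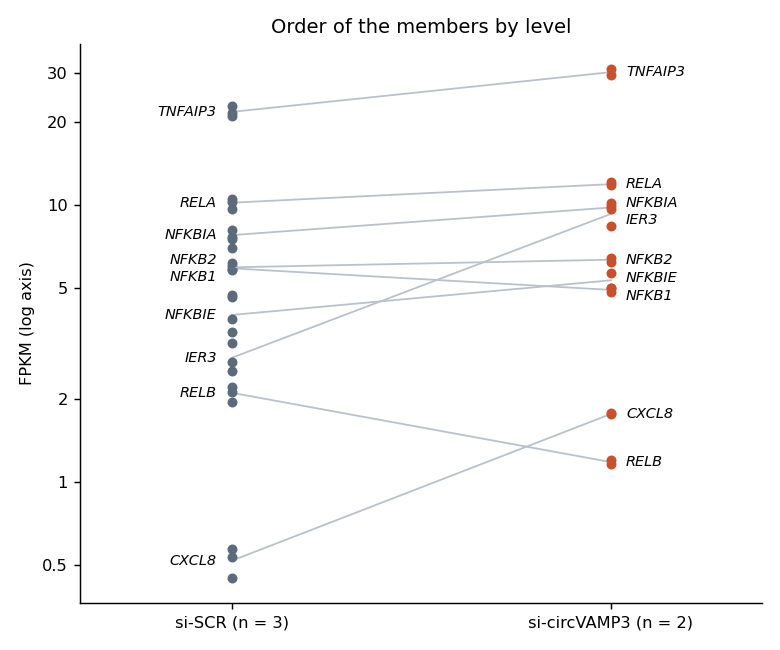
FPKM of the 9 members (vertical log axis) in si-SCR and si-circVAMP3 cells, with each point a library and lines joining the group means. IER3 goes from 2.81 to 9.29 and crosses NFKBIE, NFKB1 and NFKB2. CXCL8 and RELB change places, as do NFKBIE and NFKB1.

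The genes whose profile over the 5 libraries lay nearest to that of IER3, by Euclidean distance between mean-centred log2(FPKM + 0.5) values among 12422 genes, were IGLC3 (0.37), TXNIP (0.53) and CXCL8 (0.55). IGLC3, an immunoglobulin light chain constant gene, was counted with 11 to 53 fragments per library and has near-identical copies, so its level is uncertain. For CXCL8 the nearest were ZSCAN31 (0.16), MGP (0.22) and TXNIP (0.23), and IER3 came at rank 54. That rank depends on the value added, since it was 4 with 0.1 FPKM added, at a distance of 0.39, and 1085 with 1 FPKM added, at 0.68, both tried after the data were seen. For IER3, CXCL8 came at rank 3 with 0.1 FPKM added and at 11 with 1 FPKM added. The nearest genes changed as well. With 0.1 FPKM added they were IGLC3, FGF18 and CXCL8 for IER3, and FGF18, ZSCAN31 and AKR1C2 for CXCL8. With 1 FPKM added they were IGLC3, TXNIP and MGP for IER3, and ZSCAN31, BLCAP and DUSP6 for CXCL8.

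Outside the members, 163 further genes of the pathway were listed by role, and 105 of them were tested. Calls took in 4 higher and 2 lower genes, 5.71% of the 105 beside 3.76% of all genes tested. Of the 4 higher genes, FOSL1 reached the low-value minimum only through the si-circVAMP3 libraries, a way of passing that favours higher values there. Over genes that reached it in at least 2 libraries of each group, 5 of 104 listed genes were called (4.81%), 3 higher and 2 lower, beside 3.56% of 11922 genes. The median log2 difference was 0.08, beside 0.01 over all genes. By adjusted p alone, 24 were higher (22.9%, beside 14.4%) and 16 lower (15.2%, beside 15.8%). Shares of calls that are given list by list stand beside 3.76% of all genes tested, with 1.07% called higher and 2.69% lower. The shares by adjusted p alone that are given list by list stand beside these same shares of 14.4% and 15.8% over all genes, and the genes named for them were picked out after their values were seen. The split of the calls moved with single libraries. It was 7 higher and 1 lower without si-SCR replicate 1, 7 and 2 without si-SCR replicate 2, 4 and 2 without si-SCR replicate 3, 4 and 3 without si-circVAMP3 replicate 1, and 4 and 1 without si-circVAMP3 replicate 2.

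Upstream of the kinase complex, 14 receptor and adaptor genes were tested, with a median log2 difference of 0.14, and 1 was called (7.14%). By adjusted p alone 5 were higher (35.7%), TNFRSF1A, TNFRSF12A, TRADD, FADD and TICAM1, and 1 was lower (7.14%), IRAK1. TICAM1, the adaptor of Toll-like receptor 3 that is also known as TRIF, rose. Its FPKM was 1.13, 0.942 and 0.839 in the si-SCR libraries and 2.02 and 1.88 in the si-circVAMP3 libraries, with no overlap. The log2 difference was 0.74 ± 0.10 (SE; limma, Benjamini-Hochberg adjusted p = 0.0038). The most abundant genes of the list were IRAK1, a kinase of interleukin-1 signalling, and TNFRSF12A, the receptor of TWEAK. Their log2 differences of -0.36 and 0.54 were below the size required for a call.

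Of 22 kinases and ubiquitin ligases of activation, 2 were called (9.09%), both of them lower, and the median log2 difference was -0.01. The adjusted p alone took in 2 higher (9.09%), TBK1 and SKP1, and 5 lower genes (22.7%), which added BTRC, MAP3K3 and XIAP to the called genes. MAP3K7 encodes TAK1, the kinase that activates the IκB kinase complex. Its FPKM was 38.6, 41.4 and 40.7 in the si-SCR libraries and 24.5 and 24.3 in the si-circVAMP3 libraries, so that the groups were far apart beside their spread. The log2 difference was -0.71 ± 0.05 (SE; limma, Benjamini-Hochberg adjusted p = 0.00031), and the call held under all 16 alternatives. UBE2V1 encodes a partner of the enzyme that builds lysine-linked ubiquitin chains that activate TAK1. Its FPKM was 4.16, 3.74 and 3.93 in the si-SCR libraries and 2.53 and 2.32 in the si-circVAMP3 libraries, with no overlap and a log2 difference of -0.60 ± 0.07 (SE; limma, Benjamini-Hochberg adjusted p = 0.0024). The UBE2V1 call was lost without si-SCR replicate 1 (-0.57), without si-circVAMP3 replicate 2 (-0.55), with 1 FPKM added (-0.53) and with quantile normalization (-0.58). UBE2V1 also shares exons with a read-through gene and has similar copies, so its count is uncertain.

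Of 14 negative regulators, 1 was called (7.14%), with a median log2 difference of 0.15. With no limit on the difference 6 were past the adjusted p and higher (42.9%) and 1 was lower (7.14%), CYLD. SPATA2, which links the deubiquitinase CYLD to receptor complexes, rose. Its FPKM was 4.41, 4.99 and 4.82 in the si-SCR libraries and 7.91 and 7.27 in the si-circVAMP3 libraries, all above the si-SCR libraries. The log2 difference was 0.63 ± 0.07 (SE; limma, Benjamini-Hochberg adjusted p = 0.0019), and it fell short of the required size without si-circVAMP3 replicate 1, at 0.57. SQSTM1, the autophagy receptor p62, had a log2 difference of 0.57, just below that size, and RNF11, a partner of A20, one of 0.31. Of the 6 remaining IκB proteins and their binding partners, limma called 0, with 3 at an unadjusted p under 0.05 and 0 called on recovered fragments. The most abundant of them were NFKBIB, with a log2 difference of 0.12, and NKIRAS2, with -0.54. NFKBIZ was higher and NKIRAS2 lower by adjusted p alone, 16.7% of the 6 each. REL, the remaining subunit, was not among the genes tested.

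Among the targets, 3 chemokines and cytokines outside the members were tested of 22 listed, so that CXCL8 was one of few genes of this kind to pass the filter on low values. Limma called 0 of the 3, with 1 at an unadjusted p under 0.05 and 0 called on recovered fragments. CCL2, a monocyte chemokine, had FPKM values of 1.83, 2.06 and 1.84 in the si-SCR libraries and of 3.10 and 2.59 in the si-circVAMP3 libraries, a log2 difference of 0.47, and was the 1 gene of the 3 that was higher by adjusted p alone (33.3%), with 0 lower. IL32 did not differ in mean, with a log2 difference of 0.00 ± 0.09 (SE). CXCL3, the remaining gene of the 3, had overlapping libraries and a log2 difference of 0.03 ± 0.11 (SE). Its FPKM was 0.659, 0.487 and 0.686 in the si-SCR libraries and 0.608 and 0.657 in the si-circVAMP3 libraries. Of 16 other target genes 1 was called (6.25%), with a median log2 difference of 0.11. By adjusted p alone 6 were higher (37.5%) and 1 was lower (6.25%), KLF6. PLAU, which encodes urokinase, rose from FPKM values of 16.0, 16.5 and 17.8 to 26.4 and 27.6, without overlap (log2 difference 0.67 ± 0.06 SE; limma, Benjamini-Hochberg adjusted p = 0.00082). BCL2L1, which encodes the survival protein BCL-XL, had a log2 difference of 0.53, and the cell cycle gene CCND1 one of 0.13, neither of them called.

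At the CXCL8 promoter NF-κB acts beside AP-1 and C/EBP factors. From a list of partners there, 11 genes were tested, with a median log2 difference of 0.27. This list also held POU2F1, an octamer factor, at -0.05. The C/EBP factor CEBPD, at -0.31 ± 0.21 (SE) with overlapping libraries, was counted among the other target genes and not here. The 1 gene past the thresholds (9.09%) was FOSL1, an AP-1 subunit, which passed the filter on low values only through the si-circVAMP3 libraries. Its FPKM was 0.477, 0.636 and 0.319 in the si-SCR libraries and 1.20 and 1.47 in the si-circVAMP3 libraries, without overlap. The log2 difference was 0.92 ± 0.15 (SE), on 15 to 80 fragments per library, and ran from 0.66 to 1.53 over the 15 alternatives that tested it. The ratio of the means was 2.80, and the added 0.5 FPKM exceeds the si-SCR mean of 0.477, so that the log2 difference understates the ratio. Without si-circVAMP3 replicate 2 the log2 difference was 0.81 and not called. The AP-1 subunits JUND and JUN had the highest FPKM averaged over all 5 libraries, with log2 differences of 0.31 and 0.33, and the libraries of JUN overlapped. In si-SCR cells CEBPG, at 30.5 FPKM, was above JUND at 28.6 and JUN at 26.8. CEBPG and ATF3, picked out after their values were seen, were lower in both si-circVAMP3 libraries, with log2 differences of -0.34 and -0.37 that were not called. The other C/EBP factors tested from this list, CEBPA at 0.27 and CEBPB at 0.29, were higher in both. They too were named after their values were seen, and neither was past the adjusted p. JUND and FOSL1 were higher (18.2%) and CEBPG and ATF3 lower (18.2%) by adjusted p alone.

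CXCL8 and IER3 transcripts carry AU-rich elements through which their decay is controlled. A list of 17 genes held factors that bind such elements or degrade the RNA, and the kinase MAPKAPK2, with a log2 difference of 0.19. Of the 17, limma called 0, with 7 at an unadjusted p under 0.05 and 0 called on recovered fragments. The median log2 difference was -0.02. The most abundant, HNRNPD and KHSRP, had log2 differences of 0.01 and -0.05 and overlapping libraries. By adjusted p alone 0 were higher (0.00%, beside 14.4% of all genes tested) and 5 lower (29.4%, beside 15.8%), which were picked out after their values were seen. They were the deadenylase subunits CNOT1, CNOT2 and CNOT7, the decapping enzyme DCP2 and the exonuclease XRN1, with log2 differences from -0.29 to -0.18. The other deadenylase genes of the list were not lower in both si-circVAMP3 libraries, with log2 differences of -0.02 for CNOT3, -0.02 for CNOT8 and 0.13 for PARN. Of the receptors of CXCL8 and the ligands of ICAM1, 2 of 7 listed genes were tested, SDC1 with a log2 difference of 0.55 and ITGB2 with -0.32, and limma called 0, with 1 at an unadjusted p under 0.05 and 0 called on recovered fragments. SDC1 was the 1 gene of the 2 that was higher by adjusted p alone, and 0 were lower.

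**Figure D5:**
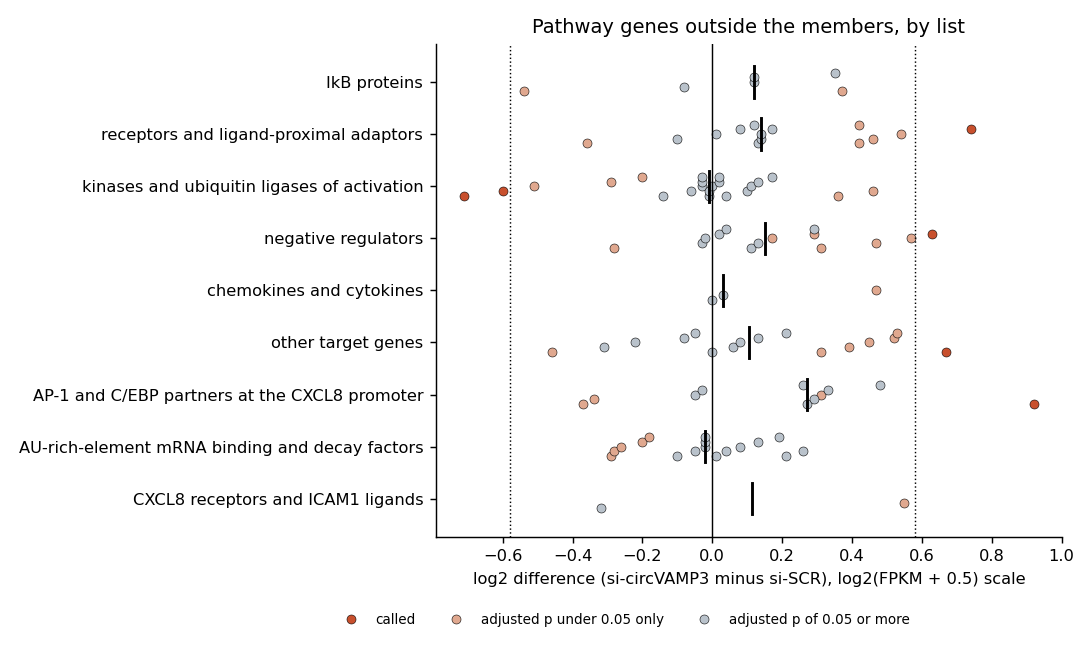
Log2 difference (si-circVAMP3 minus si-SCR, horizontal axis, on the log2(FPKM + 0.5) scale) of the 105 pathway genes outside the members, by list, with each point a gene, each short black line a list's median and dotted lines at the size of 0.58 required for a call. The 6 called genes lie outside the dotted lines, from MAP3K7 at -0.71 to FOSL1 at 0.92.

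The label of the cells was checked against markers. Of 14 genes that mark alveolar rhabdomyosarcoma and myogenic cells, 12 had a row (MYOD1, MYOG, DES, CDH15, CHRND, FGFR4, PAX3, FOXO1, TFAP2B, OLIG2, NOS1 and MYCN), and MYF5 and MYF6 were not analysed here. Their summed FPKM was 1053, 1032 and 892 in the si-SCR libraries and 838 and 848 in the si-circVAMP3 libraries, with DES the most abundant. Both si-circVAMP3 sums were below all si-SCR sums, but with MYOG left out the sums of the other 11 markers overlapped, at 877, 853 and 743 in the si-SCR libraries and 737 and 751 in the si-circVAMP3 libraries. Singly, 7 of the 12 markers were lower in both si-circVAMP3 libraries and 5 overlapped, beside 29.0% of all genes tested that were lower in both. MYOG, which encodes the differentiation factor myogenin, fell from FPKM values of 175, 179 and 149 to 101 and 96.6 (log2 difference -0.76 ± 0.08 SE; limma, Benjamini-Hochberg adjusted p = 0.0016), while MYOD1 overlapped between the groups with a log2 difference of 0.20. The part of this difference in the values of the NF-κB genes was not tested.

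Markers of cells that commonly express CXCL8 or ICAM1 were low beside the summed myogenic markers, but not all were low beside CXCL8. In the si-SCR libraries, where CXCL8 was at 0.452 to 0.573 FPKM, the markers ITGB2, PDGFRA and DCN were above it. In the si-circVAMP3 libraries, with CXCL8 at 1.76 and 1.77, these markers were below it. The part of other cells in the CXCL8 values was not tested. Of 7 leukocyte markers 1 had a row, ITGB2, with FPKM values of 1.51, 1.18 and 1.22 in the si-SCR libraries and of 1.14 and 0.768 in the si-circVAMP3 libraries. PTPRC, CD14, LYZ, CSF1R, CD68 and TYROBP were not analysed here. Of 4 endothelial markers PECAM1 alone had a row, at 0.0777 to 0.153 FPKM, with VWF, CDH5 and TEK not analysed here. Of 4 epithelial markers KRT8 alone had a row, with EPCAM, KRT18 and CDH1 not analysed here. KRT8 had FPKM values of 0.316, 0.215 and 0.256 in the si-SCR libraries and of 0.651 and 0.58 in the si-circVAMP3 libraries, higher in both, with a ratio of the means of 2.35 and ratios of single libraries from 1.84 to 3.02. Its log2 difference of 0.55 was not called, but the added 0.5 FPKM exceeds its si-SCR level, so that value understates the ratio. KRT8 passed the filter on low values only through the si-circVAMP3 libraries, and its part in the values of the NF-κB genes was not tested. The fibroblast markers PDGFRA and DCN summed to 1.64, 1.46 and 1.66 FPKM in the si-SCR libraries and to 1.49 and 1.37 FPKM in the si-circVAMP3 libraries, and THY1 and LUM were not analysed here. Apart from KRT8, none of these marker sums was higher in both si-circVAMP3 libraries than in all si-SCR libraries.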

How the data were processed

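Gene expression was measured by stranded poly-A+ RNA sequencing (TruSeq Stranded mRNA) in 3 si-SCR and 2 si-circVAMP3 libraries of RH4 cells, which the study's methods call biological replicates. Per the submitters' processing notes and the study's methods, the authors used bcl2fastq 2.20.0.422, Trimmomatic, STAR 2.5.2b on GRCh38, and HTSeq with strand-aware counting, removed low genes, and made the deposited FPKM values with edgeR. Whether normalization factors entered the FPKM was not stated. The authors' tests used counts, whereas the values held here are FPKM, so limma 3.58.1 (R 4.3.3) was fitted with an abundance trend to log2(FPKM + 0.5), over genes with at least 0.5 FPKM in at least 2 libraries. Genes were called at a Benjamini-Hochberg adjusted p under 0.05 and an absolute log2 difference of at least 0.58, the thresholds of the study, and limma was tested on simulated data.

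Since FPKM of whole fragments are multiples of the value of 1 fragment, whole fragments were recovered for 13820 of 13822 genes, for 13815 to within 1e-05 of a whole number in every library and for 5 abundant genes to within 0.01. A factor common to all 5 libraries could go undetected in genes whose length differs from the annotation used here. Library totals were 18395043 to 28486288 fragments, and counting error ranged from 1.49% to 19.2% over members and libraries. Replicates differed by more than sampling noise, but repeats of one sample can do so too. That they are separate samples therefore rests on the study's methods. By chi-squared per degree of freedom against sampling noise, si-SCR replicate 3 differed from replicates 1 and 2 by 10.70 and 7.06. Those 2 differed from each other by 3.82, and the si-circVAMP3 libraries by 3.42.

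The members and lists were chosen with earlier results of these data known. Genes named were all members, VAMP3, the 3 called genes per list and direction with the largest log2 difference (with fewer than 2 called, the 2 most abundant genes), the 3 nearest profiles of IER3 and of CXCL8, and the cell markers. POU2F1, CEBPD, CXCL3 and MAPKAPK2 were named for their place in the lists. Genes chosen after their values were seen are marked as such. Coordinates are from GENCODE v44 on GRCh38. The siRNA sequence is from the study's oligonucleotide list. Promoter searches used the 250 bases before each RefSeq start, and protein sequences were not used here. Alternatives were other pseudocounts, filters, scalings, call rules and variance models, a replicate block, leaving out each library, and limma-voom on recovered fragments. The last, and other pseudocounts for the nearest profiles, were added after the data were seen.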

Additional observations from a re-analysis of the deposited data

How the results depend on the processing

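The number of genes called was 467 and stayed within 1.5 times of this except with 0.1 FPKM added (717), with the adjusted p alone (3756) and with limma-voom on recovered fragments (775), of which 466, 467 and 460 were among the 467. Leaving out each library in turn gave 424 to 515. The pathway genes called outside the members numbered 6, or 40 with the adjusted p alone, and 5 to 9 with each library left out. Where 1 si-circVAMP3 library was left, it was assumed to vary like the si-SCR libraries. As a description of members selected on this contrast, the log2 difference ran from 1.43 to 1.74 for IER3, from 0.86 to 1.75 for CXCL8 and from -0.84 to -0.50 for RELB. CXCL8 had no value where at least 1 FPKM in at least 3 libraries was required. Of the member values, 136 moved by less than the replicate SD and 7 by more. The 136 include values that could not move, since other filters, call rules and variance models leave a log2 difference as it is. The count is therefore no measure of stability. Of the members, NFKB2 alone changed sign, to -0.05 without si-SCR replicate 3 and -0.05 with the replicate block. For the log2 differences of the members these are not separate alternatives. In the block, si-SCR replicate 3 has no same-numbered si-circVAMP3 library, and every member had the same value in both fits. The replicate numbers were not treated as pairs. Deviations of the same-numbered libraries from their group means correlated at -0.15 and -0.03 across genes, and genes are not independent replicates. With 2 si-circVAMP3 libraries, the deviations of 1 are those of the other with the sign reversed. These correlations therefore cannot decide whether the libraries were paired. The fit with the replicate block called 488 genes, 420 of them among the 467, and 6 listed pathway genes. Depth limits CXCL8, RELB and IER3, which have the fewest fragments, and 2 si-circVAMP3 libraries limit every SD given for that group.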

Other observations

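The antisense strand of si-circVAMP3 carries a seed, bases 2 to 8, whose reverse complement was searched in the canonical transcript of each gene tested, with untranslated and coding parts together. It matched in 3670 of 12387 genes (29.6%). The median log2 difference was -0.08 in genes with a match and 0.03 in genes without one. Of the 9 members, 4 held a match, RELB with 2 and NFKB1, NFKB2 and NFKBIE with 1 each, while IER3, CXCL8, RELA, NFKBIA and TNFAIP3 had none. Longer transcripts hold a given run of bases more often, and the part of the seed or of transcript length in the values of the members was not tested.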
